A study of Mus musculus with 24 samples.

Results

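The expression of 10 heat shock chaperone genes was followed across the ventral prostate of 6 inbred mouse strains. The members were chosen by name, with earlier results of these data known. They were Hspa1a, Hspa1b, Hspa8, Hsph1, Dnaja1, Dnajb1, Hsp90aa1, Hspb1, Hspd1 and Hspe1. Every probe set annotated to 1 of these 10 genes, of 12394 named on the array, was kept. They amounted to 22 probe sets of the 22690 on the array, and all 22 passed the filter on low values that left 15775 probe sets for testing. The study hybridised ventral prostate RNA from C57BL/6, BALB/c, FVB, 129X1, SWR and AKR mice to Affymetrix MOE430A arrays, with 4 arrays per strain and 24 in all. All animals were wild type, 8 weeks old, without treatment and on a standard diet, so the strain was the only factor that differed by design. The labels call the 4 arrays of a strain biological replicates and do not say whether an array held RNA of 1 mouse or of several, so the p-values measure the spread between these samples.

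Heat shock proteins bind unfolded or partly folded proteins and keep them from aggregating. When such proteins accumulate, the transcription factor Hsf1 forms trimers, binds repeated inverted GAA units called heat shock elements, and raises transcription of the inducible members. Hsp70 proteins hold and release their clients in a cycle driven by ATP, which J-domain proteins (Dnaja1, Dnajb1) start by stimulating hydrolysis and which the Hsp110 protein Hsph1 resets by exchanging the nucleotide. Hsp90 acts later on clients that include steroid receptors, among them the androgen receptor on which prostate epithelium depends.

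The arrays of each strain resembled each other more than those of other strains. Over all tested probe sets the mean correlation between arrays was 0.957 within strains (0.939 to 0.975) and 0.925 between strains (0.898 to 0.950), and each of the 24 arrays correlated best with an array of its own strain. The tissue label was checked against marker genes. All 11 measured luminal markers of the ventral prostate, such as Spink1, Msmb, Pbsn, Krt8, Krt18 and Hoxb13, exceeded the 40th percentile of the array on all 24 arrays. Of the 6 measured markers of other prostate lobes and the seminal vesicle, Svs2, Svs4, Svs6 and Pate4 did so on 0 arrays, Svs3a on 6 and Svs5 on 15. Levels below are log2(rescaled intensity + 16), each fold is on that scale and so understates changes of dim probe sets, and no level of a probe set is set against that of another. In whole tissue, fewer cells of a type and less RNA per cell cannot be told apart.

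Most of these genes had their highest level in AKR. Of the 22 probe sets 16 differed among the strains in the moderated F test of limma at a Benjamini-Hochberg adjusted p under 0.05, a rule that called 36.4% of all tested probe sets. Against the mean of the other 5 strains, 16 of 22 were higher in AKR and 0 were lower, where 4.67% of all probe sets were higher and 5.12% lower. Because the members were chosen with earlier results known, these shares describe the set and do not test it. At an unadjusted limma p under 0.05, 17 were higher and still 0 lower. No share of all probe sets at that unadjusted threshold is given here or below. The difference was above 0 at all 22 probe sets, from 0.02 to 3.18 with a median of 0.54, beside a median of 0.03 over all probe sets tested, and AKR had the highest mean at 19 of 22. Each of the 10 genes had at least 1 probe set called higher in AKR, and 8 of 10 were called at their brightest probe set, where 4.25% of all genes were higher and 5.03% lower. In the pairwise contrasts of AKR, 12 of the 22 were called against SWR (10% of all probe sets), 10 against 129X1 (11.4%), 12 against FVB (7.42%), 12 against BALB/c (12.6%) and 11 against C57BL/6 (11.5%). The pairs without AKR called far fewer members. Of 22, SWR differed from 129X1 at 2 (9.2% of all), from FVB at 0 (6.87%), from BALB/c at 2 (19.8%) and from C57BL/6 at 1 (7.97%). For 129X1 the counts were 0 against FVB (8.49%), 1 against BALB/c (17.6%) and 0 against C57BL/6 (11.5%). FVB differed at 2 from BALB/c (11.6%) and at 3 from C57BL/6 (10.8%), and BALB/c from C57BL/6 at 1 (14.6%).

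**Figure D1:**
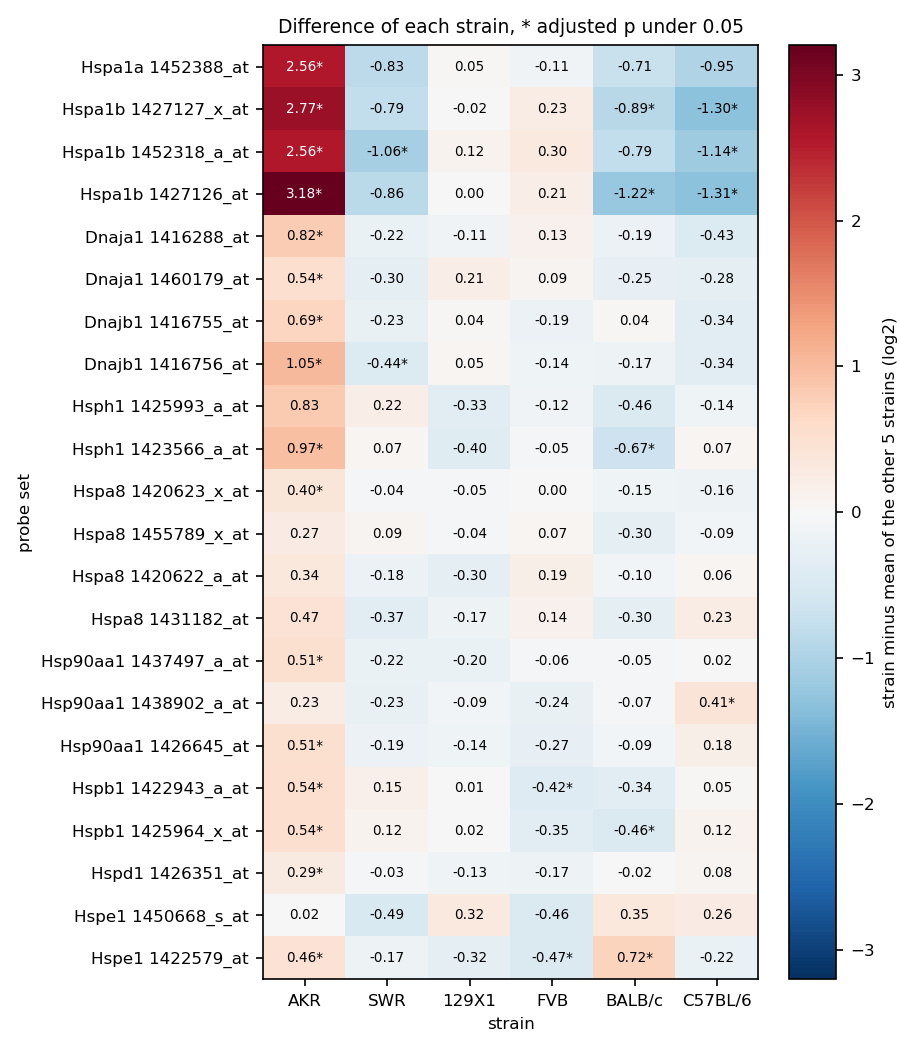
Difference of each strain from the mean of the other 5 strains (log2, colour and number) for the 22 chaperone probe sets, with an asterisk where the limma adjusted p was under 0.05. The AKR column is above 0 throughout and holds 16 asterisks, and its largest values, from 2.56 to 3.18, are those of Hspa1a and Hspa1b.

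The inducible Hsp70 genes Hspa1a and Hspa1b, which are expressed at low levels in unstressed cells and rise after heat or proteotoxic stress, differed most. The brightest of the 3 Hspa1b probe sets (1427127_x_at) read 10.29, 11.75, 12.04 and 10.45 on AKR replicates 1 to 4. It read 8.15, 8.18, 8.03 and 8.33 in SWR, 8.90, 8.52, 8.48 and 9.36 in 129X1, and 8.91, 9.15, 8.75 and 9.26 in FVB. It read 7.91, 7.09, 9.45 and 7.90 in BALB/c, and 7.56, 7.40, 7.99 and 8.02 in C57BL/6. The AKR arrays therefore lay above all 20 other arrays, and the highest of those others was BALB/c replicate 3. The AKR mean of 11.13 ± 0.89 (SD, n = 4) was 6.82-fold above the mean of the other strains of 8.37, a log2 difference of 2.77 ± 0.29 (SE) with a limma adjusted p of 5.5e-07. AKR exceeded each of the other 5 strains in the pairwise contrasts, by 2.12 (FVB, limma adjusted p = 0.00067) to 3.39 (C57BL/6, limma adjusted p = 1e-06).

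Below AKR the strain means of this probe set ran in the order FVB, 129X1, SWR, BALB/c and C57BL/6. No neighbours in that order were called different, and among the 10 pairs without AKR only FVB against C57BL/6 was called, at a difference of 1.28 with a limma adjusted p of 0.029. Against the mean of the other 5, which includes the high AKR values, C57BL/6 was lower by 1.30 (limma adjusted p = 0.0041) and BALB/c was lower by 0.89 (limma adjusted p = 0.035). The BALB/c call was lost without BALB/c replicate 2, when its difference was -0.56 and the limma adjusted p was 0.22, and also without replicate 1 (0.10) or replicate 4 (0.11). The other Hspa1b probe sets were higher in AKR too, by 2.56 at 1452318_a_at and 3.18 at 1427126_at, with strain means spanning 8.48-fold and 13.4-fold. C57BL/6 was called lower at both, beside a second strain that differed between them. SWR and C57BL/6 were lower at 1452318_a_at, by 1.06 and 1.14 (limma adjusted p = 0.027 and 0.015), and BALB/c and C57BL/6 at 1427126_at, by 1.22 and 1.31 (limma adjusted p = 0.013 and 0.012). Each of these 4 calls kept its direction but was lost without single arrays of its own strain. At 1452318_a_at the SWR call was lost without SWR replicate 1, 2 or 3 (limma adjusted p = 0.090, 0.081 and 0.078), and the C57BL/6 call without its replicate 1 or 2 (0.055 and 0.051). At 1427126_at the BALB/c call was lost without its replicate 1, 2 or 4 (limma adjusted p = 0.077, 0.061 and 0.064), and the C57BL/6 call without its replicate 2 (0.052).

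Hspa1a was measured by 1 probe set (1452388_at), which was above the 40th percentile of the array on 19 of 24 arrays. Its values were 7.52, 10.02, 9.45 and 7.69 on AKR replicates 1 to 4, while the 20 other arrays ranged from 5.40 to 7.13. AKR arrays again did not overlap the others, and replicates 2 and 3 stood well above replicates 1 and 4. In rescaled intensity the AKR arrays read 168, 1025, 683 and 190, against 26.2 to 124 elsewhere. The AKR mean was 8.67 ± 1.25 (SD, n = 4) against 6.12, a difference of 2.56 ± 0.31 (SE), or 5.88-fold, with a limma adjusted p of 5.2e-06. The SE and p of each contrast rest on 1 spread per probe set, pooled over the 6 strains. The SD of Hspa1a in the other strains ran from 0.12 in FVB to 0.75 in BALB/c. Where the AKR arrays varied most, as here, the pooled SE understates the uncertainty of the AKR difference. Across the members, all 4 AKR arrays lay above all 20 others at 5 of 22 probe sets, the 4 of Hspa1a and Hspa1b and 1 of Dnajb1, where 0.52% of all probe sets did so. The calls of Hspa1a and Hspa1b in AKR held in each of the 24 fits that left out 1 array.

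**Figure D2:**
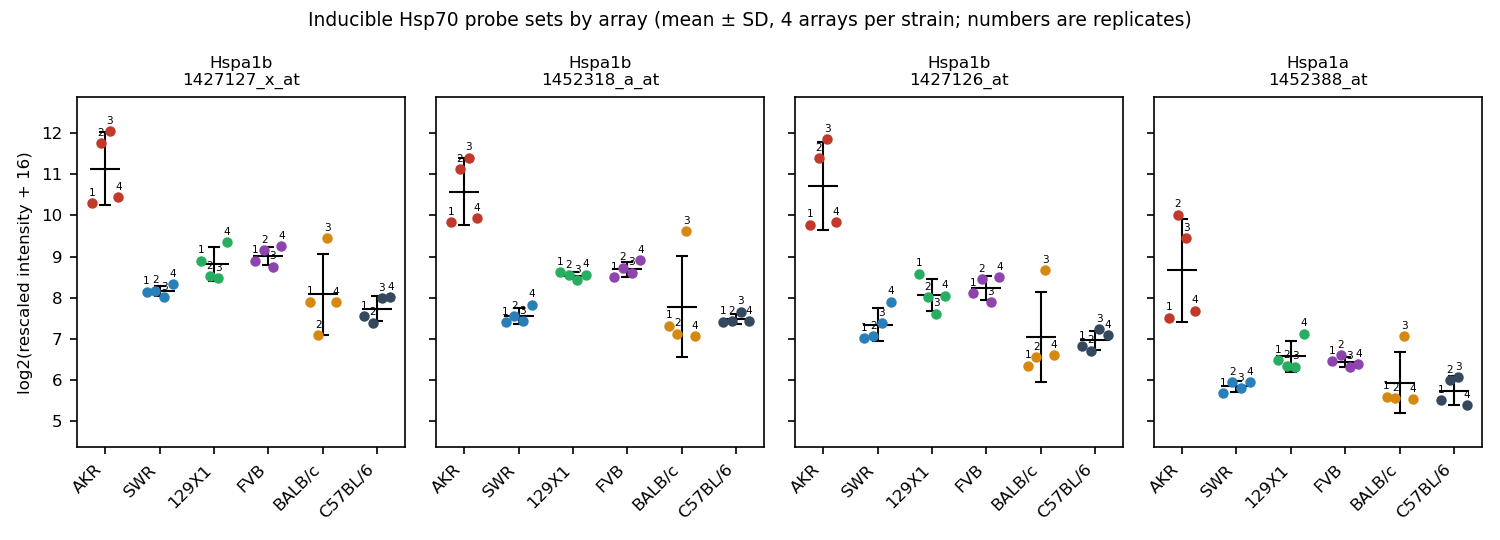
Log2(rescaled intensity + 16) of the 4 Hspa1a and Hspa1b probe sets on each array, numbered by replicate, with the mean and SD of the 4 arrays of a strain. The 4 AKR arrays lie above the other 20 at every one of these probe sets, AKR replicates 2 and 3 lie above replicates 1 and 4, and BALB/c replicate 3 stands above the other BALB/c arrays.

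Hspa1a and Hspa1b are near-identical copies, and probe sets ending in _x_at, _s_at or _a_at can bind several transcripts, so how the signal divides between the copies is uncertain. Their promoters are shown because the pair moved together. The 250 bases before each start site are from RefSeq on GRCm38.p6, at chr17:34972157-34972406 (minus strand) for Hspa1a and chr17:34959239-34959488 (minus strand) for Hspa1b, written 5′ to 3′ with the heat shock element in capitals.
Hspa1a: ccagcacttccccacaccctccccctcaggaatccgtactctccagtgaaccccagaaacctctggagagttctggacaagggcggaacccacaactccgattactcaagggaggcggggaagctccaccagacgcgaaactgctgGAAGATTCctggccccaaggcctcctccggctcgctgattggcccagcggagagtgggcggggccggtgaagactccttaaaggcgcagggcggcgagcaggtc
Hspa1b: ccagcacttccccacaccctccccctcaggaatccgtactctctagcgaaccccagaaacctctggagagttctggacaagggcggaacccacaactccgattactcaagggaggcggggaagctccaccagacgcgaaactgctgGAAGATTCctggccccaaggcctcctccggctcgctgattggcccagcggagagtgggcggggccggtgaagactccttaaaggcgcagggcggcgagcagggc
Both held the element at bases -104 to -97 from the start site and a CCAAT box, read as ATTGG, at -67 to -63. Over the whole 300-base windows of the table, which add 50 bases from the start site on, the copies differed at 4 bases and were 98.67% identical. With Hspa1b as the reference and positions counted from 1 at the 5′ end of the window, the changes were T44C, C47T, G249T and T276C. The start sites lay 12918 bases apart.

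Heat shock elements were searched in all promoter windows as GAANNTTC or TTCNNGAA, which are 2 inverted units and read the same on both strands. They occurred in 6 of the 8 members with a window, beside 15.15% of 27025 RefSeq promoters. Elements of 3 units, GAANNTTCNNGAA or TTCNNGAANNTTC, overlap the shorter ones and occurred in Hspe1 and Hsph1, 2 of 8 members, beside 0.5402% of all promoters. The CCAAT box, searched as CCAAT or ATTGG, occurred in 5 of 8 members and in 38.02% of all. Dnajb1 and Hspd1 had no element of these letters in the window, and Hspa8 and Hsp90aa1 had no entry. A match is a description of letters in the reference sequence and says nothing of whether Hsf1 was bound in these samples. The stretches around the other elements were as follows, with the elements in capitals.
Dnaja1, chr4:40722334-40722361, plus strand: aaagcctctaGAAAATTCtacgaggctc
Hspb1, chr5:135887792-135887819, plus strand: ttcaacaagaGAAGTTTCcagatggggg
Hspb1, chr5:135887812-135887839, plus strand: gatgggggcaGAACCTTCctggccccgc
Hsph1, chr5:149636352-149636379, minus strand: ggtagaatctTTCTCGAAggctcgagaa
Hsph1, chr5:149636287-149636310, minus strand: atgctgcagaTTCTGGAAAGTTCt
Hspe1, chr1:55088049-55088086, plus strand: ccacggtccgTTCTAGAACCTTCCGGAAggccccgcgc
The Hspe1 stretch carried 4 alternating units at -89 to -72. Hspd1 and Hspe1, which encode the mitochondrial Hsp60 and its partner Hsp10, are neighbours on opposite strands whose start sites lay 95 bases apart, with the 5′ ends of the genes overlapping. The Hspe1 element therefore lay upstream of the Hspe1 start site and downstream of that of Hspd1, outside the Hspd1 window, and the windows shared 4 bases.

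**Figure D3:**
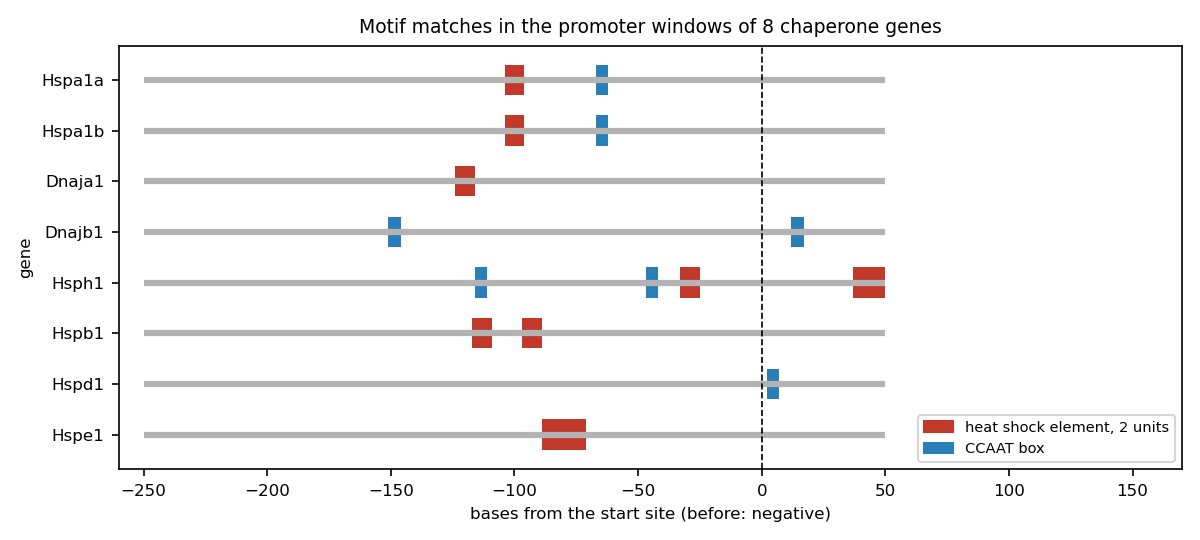
Positions of heat shock elements of 2 units and of CCAAT boxes in the RefSeq promoter windows of the 8 chaperone genes that have one, in bases from the start site (dashed line). Hspa1a and Hspa1b carry both motifs at the same positions, and Hspe1 and Hsph1 hold runs of overlapping elements.

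The J-domain partners of Hsp70 were higher in AKR at all 4 of their probe sets. Dnaja1, a farnesylated cytosolic J-protein, read 8.96, 9.81, 10.01 and 9.37 on the AKR arrays at its brightest probe set (1416288_at), and 8.24 to 9.11 on the 20 others. Only AKR replicate 1 fell inside the range of the other strains. The AKR mean of 9.54 ± 0.47 (SD, n = 4) was 1.76-fold above 8.72, a difference of 0.82 ± 0.16 (SE) with a limma adjusted p of 0.0012. AKR exceeded SWR, 129X1, BALB/c and C57BL/6 by 0.77 to 1.04 in the pairwise contrasts, and the contrast with FVB was not called. The second probe set (1460179_at) was higher in AKR by 0.54 (limma adjusted p = 0.0014), and there 129X1 was not called different from AKR and exceeded SWR by 0.43 (limma adjusted p = 0.049).

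Dnajb1, the Hsp40 that delivers substrates to inducible Hsp70, read 7.77, 8.58, 8.60 and 7.40 in AKR at 1416755_at, against 7.08 to 7.77 on the other arrays. AKR replicates 2 and 3 lay above every other array, replicate 1 equalled the highest of them to 2 decimals, and replicate 4 lay within their range. The difference was 0.69 ± 0.15 (SE), or 1.61-fold, with a limma adjusted p of 0.0039. At 1416756_at the AKR arrays read 7.73, 8.38, 8.33 and 7.80 and the others 6.55 to 7.46, with no overlap. That difference was 1.05 ± 0.13 (SE), or 2.07-fold (limma adjusted p = 7.7e-06), and AKR exceeded each of the other 5 strains. SWR was lower there by 0.44 (limma adjusted p = 0.036), a call lost when any of the 4 SWR arrays was left out, with limma adjusted p from 0.055 to 0.18.

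Hsph1, the Hsp110 exchange factor, varied widely among the AKR arrays. Its brightest probe set (1425993_a_at) read 6.47, 8.48, 8.92 and 7.93 in AKR, against 6.46 to 7.80 elsewhere. AKR replicates 2, 3 and 4 lay above all other strains, and replicate 1 lay at the bottom of their range. The difference of 0.83 ± 0.28 (SE) missed the threshold (limma adjusted p = 0.059), and the 95% interval ran from 0.26 to 1.40. Without AKR replicate 1 it was 1.32 and called (limma adjusted p = 0.00052). At the second probe set (1423566_a_at) AKR read 6.86, 8.07, 8.33 and 7.63 and the other arrays 6.13 to 7.25, so again AKR replicate 1 alone overlapped them. The difference of 0.97 ± 0.17 (SE), or 1.96-fold, was called with a limma adjusted p of 0.00053. BALB/c was lower at that probe set by 0.67 (limma adjusted p = 0.0077), with 3 arrays from 6.13 to 6.23 and replicate 3 at 6.87.

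Differences were smaller for Hspa8 and Hsp90aa1 than for the inducible Hsp70 genes. Hspa8 encodes the Hsc70 that is made in nearly all cells without stress, and Hsp90aa1 the stress-responsive cytosolic Hsp90. Of the 4 Hspa8 probe sets 0 differed in the F test of limma after adjustment and 1 at an unadjusted p under 0.05, and the brightest (1420623_x_at) read 11.36, 11.67, 11.86 and 11.60 in AKR against 10.90 to 11.50 elsewhere. AKR was higher by 0.40 ± 0.11 (SE), or 1.32-fold (limma adjusted p = 0.022). This call was lost without AKR replicate 2, 3 or 4, when the limma adjusted p was 0.056, 0.14 and 0.059. The other 3 Hspa8 probe sets were above the other strains by 0.27 to 0.47 and were not called.

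Hsp90aa1 at 1437497_a_at read 9.51, 10.27, 10.27 and 9.96 in AKR and 9.22 to 9.86 elsewhere. AKR replicate 1 lay within the range of the other strains and the 3 other AKR arrays lay above it. The difference was 0.51 ± 0.12 (SE), or 1.43-fold (limma adjusted p = 0.0077), and fell to 0.43 (limma adjusted p = 0.063) without AKR replicate 3. At 1426645_at it was also 0.51 (limma adjusted p = 0.015), and this call too was lost without AKR replicate 2 (0.078) or 3 (0.10). The third probe set, 1438902_a_at, gave another order. C57BL/6 had the highest mean there at 9.88 ± 0.07 (SD, n = 4), higher than the other strains by 0.41 (limma adjusted p = 0.040), and AKR was not called at 0.23 (limma adjusted p = 0.29). The C57BL/6 call was kept in 15 of the 24 fits that left out 1 array, with limma adjusted p of up to 0.13 in the others.

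Hspb1 encodes the small heat shock protein Hsp25, which holds unfolded proteins without ATP and is abundant in muscle. At its brightest probe set (1422943_a_at) AKR read 10.76, 11.37, 11.86 and 11.21, against 10.30 to 11.13 elsewhere. Replicate 1 overlapped the other strains and the rest did not. AKR was higher by 0.54 ± 0.13 (SE), or 1.46-fold (limma adjusted p = 0.0070), and by 0.36 (limma adjusted p = 0.080) without AKR replicate 3. The second probe set (1425964_x_at) also gave 0.54 (limma adjusted p = 0.014), a call lost without AKR replicate 2 (0.086) or 3 (0.14). FVB was lower at the first by 0.42 (limma adjusted p = 0.046), a call kept in 7 of 24 fits that left out 1 array. BALB/c was lower at the second by 0.46 (limma adjusted p = 0.023), and by 0.38 without its replicate 2 (limma adjusted p = 0.10). In BALB/c the smooth muscle genes were lower too, at 7 of 8 markers, beside 10.6% of all probe sets. Their array score was -0.84 to -0.59 relative to the mean of all arrays, against -0.32 to 0.02 in AKR. In FVB, where Hspb1 was lower as well, 7 of 8 smooth muscle markers were higher (3.45% of all probe sets), with scores of 0.31 to 0.61. Their part in the Hspb1 values was not tested.

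At their brightest probe sets the mitochondrial chaperonins Hspd1 and Hspe1 had the smallest AKR differences of the 10 genes. Hspd1 (1426351_at) read 9.18, 9.65, 9.68 and 9.45 in AKR and 8.88 to 9.47 elsewhere, so that 2 AKR arrays overlapped the other strains. The difference was 0.29 ± 0.09 (SE), or 1.22-fold, at a limma adjusted p of 0.044, and the F test among strains was not called (limma adjusted p = 0.086). The AKR call was kept in 13 of 24 fits that left out 1 array, and the highest limma adjusted p, 0.22, came without AKR replicate 3.

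The pair of probe sets for Hspe1 disagreed on the strains. At the brightest (1450668_s_at) AKR read 7.63, 8.24, 8.41 and 7.42, inside the range of 7.01 to 8.62 of the other strains, with a difference of 0.02 (95% interval -0.31 to 0.35). Its strain means were lowest in SWR and FVB, at 7.50 and 7.52, and highest in 129X1 and BALB/c, at 8.17 and 8.19, and SWR differed from 129X1 and BALB/c (limma adjusted p = 0.041 and 0.020). At 1422579_at, BALB/c was highest with 8.53, 7.83, 8.27 and 7.91 on its 4 arrays, and AKR read 7.84, 8.23, 7.84 and 7.79. The 16 arrays of the other strains were all lower than each AKR and BALB/c array. BALB/c was higher than the mean of the others by 0.72 ± 0.11 (SE, limma adjusted p = 4.2e-05) and AKR by 0.46 ± 0.11 (SE, limma adjusted p = 0.0064), and FVB was lower by 0.47 (limma adjusted p = 0.0067). The strain 129X1 thus had a high mean at one probe set and 7.27, a low one, at the other.

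**Figure D4:**
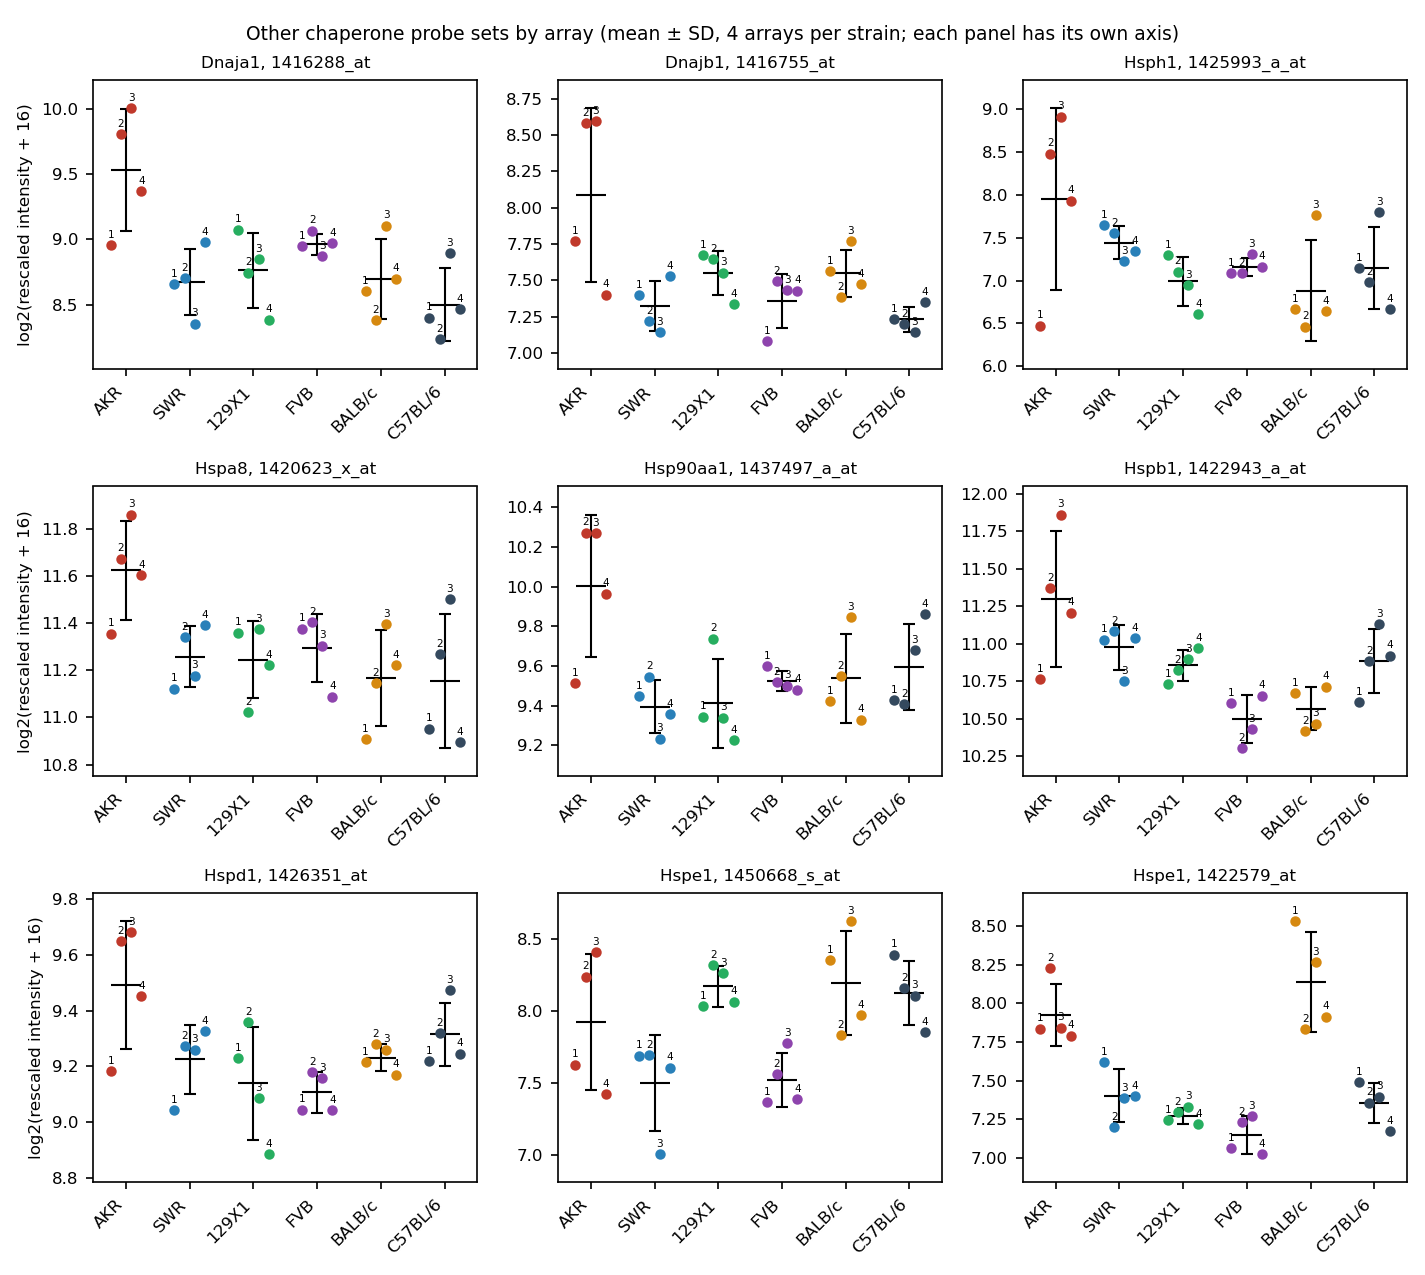
Log2(rescaled intensity + 16) of probe sets of the other 8 chaperone genes on each array, numbered by replicate, with the mean and SD of the 4 arrays of a strain. AKR is highest in most panels, its replicate 1 often lies among the other strains, and each panel has its own axis.

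Outside AKR fewer members were called against the mean of the other 5 strains. SWR had 2 lower and 0 higher of 22 (5.04% and 5.52% of all probe sets), FVB 2 lower and 0 higher (3.65% and 3.45%), and 129X1 had 0 lower and 0 higher (5.27% and 6.38%). BALB/c had 4 lower and 1 higher (10.6% and 8.3%) and C57BL/6 had 3 lower and 1 higher (5.45% and 5.65%). None of these counts reached the 16 of AKR. At an unadjusted limma p under 0.05 the lower counts were 7 in SWR, 2 in 129X1, 4 in FVB, 8 in BALB/c and 9 in C57BL/6. The higher counts were 0, 0, 0, 2 and 1, and these unadjusted counts have no share over all probe sets beside them. Each of these contrasts has AKR among the other 5 strains, and AKR was above the mean of the rest at all 22 probe sets. Its values alone push the differences of the other strains down, so these lower counts cannot be read apart from AKR. BALB/c replicate 3 changed the BALB/c count, which was 8 without that array, 1 higher and the rest lower.

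Within AKR the genes moved together from array to array. Replicates 2 and 3 lay above the AKR mean in 10 of 10 genes, taken at the brightest probe set, and replicates 1 and 4 in 0 of 10. Replicate 3 was the highest AKR array for 8 genes and replicate 1 the lowest for 8. No share over all probe sets is given for these array orders. AKR replicate 1 was also the only array deposited with 1 decimal, and the part of this in its values was not tested. The median deviation from the AKR mean over the 10 genes was -0.52, 0.29, 0.50 and -0.13 on replicates 1 to 4. The SD among AKR arrays was the largest of the 6 strains at 14 of 22 member probe sets, beside 21.2% of all probe sets, and its median over the members was 0.46 against 0.22 over all. The genes share the array, so an array with a shift in 1 of them is not an independent observation of the next.

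Single arrays of other strains showed the same kind of shift. BALB/c replicate 3 was the highest BALB/c array for 8 of 10 genes and lay above the strain mean for 9, with a median deviation of 0.36. C57BL/6 replicate 3 was the highest of its strain for 6 genes, with a median deviation of 0.25. On the low side, SWR replicate 3 was the lowest of its strain for 7 genes and BALB/c replicate 2 for 6, with median deviations of -0.17 and -0.24. No share over all genes is given for these orders. BALB/c replicate 3 also had the highest ratio of the 3′ to the 5′ actin control of all 24 arrays, at a log2 of 0.80 where the arrays ranged from 0.13 to 0.80, and its part in the deviation was not tested. The 4 AKR arrays had actin ratios of 0.15, 0.34, 0.13 and 0.36, in which the high replicates 2 and 3 did not stand apart from 1 and 4. Skeletal muscle genes stood out on SWR replicate 4 and 129X1 replicate 4, with scores of 1.13 and 1.85, and on the latter Hspa1a (7.13) and the Hspa1b probe set 1427127_x_at (9.36) were the highest in 129X1. The other 2 Hspa1b probe sets were highest on 129X1 replicate 1, at 8.62 for 1452318_a_at and 8.59 for 1427126_at, against 8.56 and 8.05 on replicate 4. On SWR replicate 4 every Hspa1b probe set was the highest in SWR, at 8.33 (1427127_x_at), 7.83 (1452318_a_at) and 7.91 (1427126_at). Hspa1a read 5.95 there, against 5.96 on SWR replicate 2. The part of muscle in these values was not tested. The AKR arrays had muscle scores of 0.09 to 0.28, and 1 of 6 measured muscle markers was higher in AKR, beside 4.25% of all genes.

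**Figure D5:**
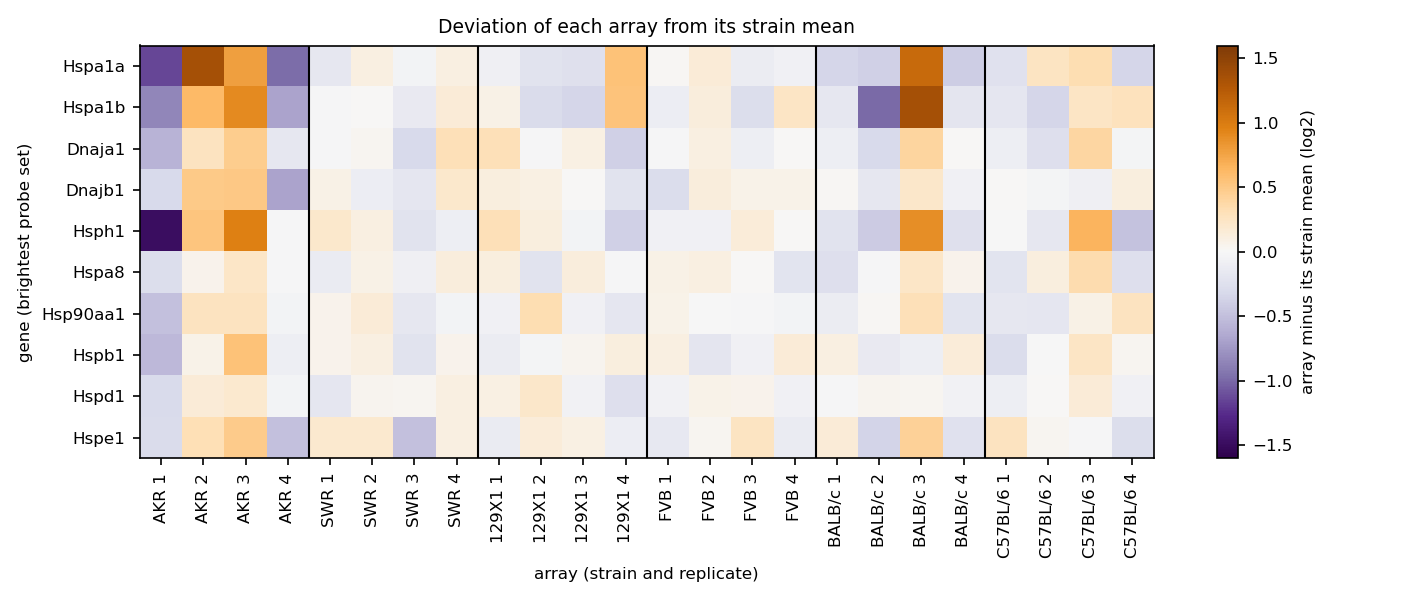
Deviation of each array from its strain mean (log2, colour) for the brightest probe set of each of the 10 chaperone genes. AKR replicates 2 and 3 are above the AKR mean for all 10 genes and replicates 1 and 4 below it, and BALB/c replicate 3 is above its strain mean for 9.

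The AKR arrays also differed in markers of other cell types. Fibroblast markers were lower at 3 of 7, with array scores of -0.53 to -0.14, and smooth muscle markers at 1 of 8, where 5.03% of all genes were lower. Of 2 adipocyte markers 0 were called, with scores of -1.27 to -0.74. Adipocyte scores were also below 0 in SWR (-1.24 to -0.54) and C57BL/6 (-1.35 to -1.15), so low scores were not particular to AKR. Luminal markers were higher at 3 and lower at 2 of 11, where 4.25% of all genes were higher. The luminal scores were -0.05, 0.26, 0.34 and 0.21 on AKR replicates 1 to 4, and so ran in the same order as the median chaperone deviations of those arrays. The part of these cell types in the chaperone differences was not tested.

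Immediate early genes, which respond within minutes to handling, dissection and many stresses, were examined beside the chaperones. In AKR 2 of 23 measured were higher (Btg2 by 0.66 and Ier3 by 0.42) and 2 were lower, among them Klf4 by 0.29. Over all genes 4.25% were higher and 5.03% lower. The array score ran from -0.10 to 0.22. The scores were 0.07, 0.22, 0.01 and -0.10 on AKR replicates 1 to 4. Replicate 2 thus had the highest score, and replicate 3, the highest for 8 chaperone genes, had 0.01. With this score as a covariate 15 of the 22 chaperone probe sets were called in AKR, all 15 higher. The share of all probe sets called in that fit is not given. The part of handling or dissection in the chaperone levels was not tested.

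Other chaperone families were counted in AKR in the same way, where 4.25% of all genes were higher and 5.03% lower. Of 3 tested genes of the heat shock factors and their regulators, 0 were called by limma and 1 was higher at an unadjusted p under 0.05, while Hsf1 itself was not measured here and Hsf2 did not pass the filter. Of 4 other Hsp70 and Hsp110 genes 0 were called, and 1 was higher at an unadjusted p under 0.05. Among 13 other J-domain genes of cytosol and nucleus, Dnaja4, a farnesylated relative of Dnaja1, was higher in AKR by 0.50 (limma adjusted p = 0.011). Dnajb2, a J-protein that binds ubiquitin, was lower by 1.18, at 6.39 ± 0.06 against 7.58 (SD, n = 4, limma adjusted p = 2.3e-06), and Dnajc5, the synaptic vesicle J-protein known as cysteine string protein, was lower by 0.46 (limma adjusted p = 0.00083). Among 8 Bag and adaptor genes only Bag3, a nucleotide exchange factor of Hsp70 that Hsf1 induces, was called, higher by 0.42 (limma adjusted p = 0.0061).

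Of 9 other Hsp90 and co-chaperone genes 2 were higher and 0 lower in AKR, beside 4.25% and 5.03% of all genes. Their median difference was 0.32 against 0.03 over all genes. Unc45a, a co-chaperone for myosin folding, was higher by 0.40 (limma adjusted p = 0.0047), and Chordc1, an Hsp90-binding protein, by 0.47 (limma adjusted p = 0.046). The Chordc1 call was kept in 9 of 24 fits that left out 1 array, and the limma adjusted p was 0.25 without AKR replicate 3. Of 4 other small heat shock genes Hspb8, a partner of Bag3, was lower in AKR by 0.31 (limma adjusted p = 0.038), and without each AKR array in turn its limma adjusted p lay between 0.063 and 0.11. Hspb8 was also lower in BALB/c by 0.88 (limma adjusted p = 6.2e-07) and higher in C57BL/6 by 0.82 (limma adjusted p = 1.7e-06). Among 9 other mitochondrial chaperones and proteases, 12 subunits of the TRiC chaperonin and prefoldin, and 5 stress-induced ubiquitin and oxidative genes, 0 were called in AKR by limma. At an unadjusted p under 0.05 the first group had 1 higher, the second 2 lower and the third 1 higher.

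The endoplasmic reticulum chaperones, which are induced mainly by the unfolded protein response, had another strain order. Of 15 measured, 11 were higher and 0 lower in BALB/c, beside 8.3% and 10.6% of all probe sets. In 129X1, 11 were lower and 0 higher, beside 5.27% and 6.38% of all probe sets. In AKR, 2 were higher, beside 4.25% of all genes. Luminal markers were higher at 8 and lower at 2 of 11 in BALB/c, with scores of 0.26 to 0.49. In 129X1 they were higher at 0 and lower at 3, with scores of -0.38 to -0.12, and their part in these values was not tested. Pdia4, a protein disulfide isomerase, was higher in BALB/c by 1.14 (limma adjusted p = 7.4e-07), lower in 129X1 by 1.15 (limma adjusted p = 6.9e-07) and higher in AKR by 0.45 (limma adjusted p = 0.024, and 0.12 without AKR replicate 3). Pdia6, another isomerase, was higher in AKR by 0.39 (limma adjusted p = 0.046), a call kept in 6 of 24 fits that left out 1 array. BALB/c, highest for these genes, had 4 of the 22 member probe sets lower and only the Hspe1 probe set 1422579_at higher. Over all probe sets 10.6% were lower and 8.3% higher there. These lower calls cannot be read apart from the high AKR values, and those of Hspa1b and Hspb1 were lost without single BALB/c arrays.

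The genes most like Hspa1b across the 24 arrays were found by Pearson correlation with its brightest probe set, among 9421 other genes. Of the other members Hspa1a came closest at 0.956, followed by Dnaja1 at 0.884, Dnajb1 at 0.797 and Hspa8 at 0.732. The remaining values were 0.697 for Hsp90aa1, 0.651 for Hsph1, 0.557 for Hspb1, 0.450 for Hspd1 and 0.087 for Hspe1. After the strain means were subtracted, the values were 0.838 for Hspa1a, 0.690 for Dnaja1, 0.682 for Hsph1, 0.652 for Dnajb1 and 0.583 for Hspe1. They were 0.562 for Hsp90aa1, 0.505 for Hspb1, 0.421 for Hspa8 and 0.270 for Hspd1. For Hspe1 the correlation was thus higher among arrays within strains than over all arrays. Hspa1a and Hspa1b are near-identical copies whose probe sets may read both transcripts, so the values of Hspa1a may in part repeat those of Hspa1b.

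Of genes outside the family the closest were Apof, an apolipoprotein (0.835), Glo1, the glyoxalase that detoxifies methylglyoxal (0.753), and Itln1, an intelectin (0.750). H2az2 (0.749), 1600014C10Rik (0.744), St6galnac6 (0.743), Slc25a29 (0.735) and Epb41l4a (0.733) followed. All 8 were higher in AKR, by 0.55 to 1.63, a direction that choice by correlation with a gene far higher in AKR favours. Their rank correlations (Spearman) with Hspa1b were lower, from 0.374 for Glo1 to 0.691 for H2az2. After the strain means were subtracted the Pearson correlation was 0.563 for Itln1, 0.305 for Apof and 0.267 for Glo1, and it was -0.412 for Slc25a29, so that most of these genes shared the AKR level with Hspa1b and less of its variation among arrays of a strain. These points share arrays and, within a strain, the genotype.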

How the data were processed

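Ventral prostate RNA of 6 inbred strains, 4 arrays each, was measured on MOE430A arrays. The authors deposited 1 linear intensity per probe set and array, made with MAS5 per the submitters' processing notes, which give no version or settings. Each deposited column has a mean of 143, and AKR replicate 1 is the only array deposited with 1 decimal. Because trimmed means (2% removed at each end) ran from 91.4 to 105, arrays were rescaled to 98.7, 16 was added and log2 was taken. Probe sets had to exceed the 40th percentile of their own array on at least 4 arrays. This left 15775 after 64 controls and 6851 others were removed. Tests used limma 3.58.1 in R 4.3.3 on all 24 arrays (18 residual and 4.85 prior degrees of freedom), with Benjamini-Hochberg adjustment over all tested probe sets within each comparison at 0.05. They assume the same spread in each of the 6 strains. The comparisons were an F test over the 6 strains, a contrast of every strain with the average of the rest, and 15 pairs. The procedure was tested on simulated data. The number of arrays limits the precision.

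The members, lists and tests were chosen with earlier results of these data known. A gene's value is that of its brightest probe set, with all others given for the 10 members only. Every other gene rests on 1 probe set, and of those most like Hspa1b, Glo1 had 2 more and Slc25a29 had 4. From each list up to 3 called genes with the largest difference were to be named, and the 8 genes most correlated with Hspa1b. An array score averages the log2 values of a list after each gene's mean over the 24 arrays was subtracted. Gene symbols came from the platform annotation and promoters from RefSeq on GRCm38.p6, taking the most upstream listed start site, where 8 of the 10 members matched. Alternatives were other pseudocounts, scalings and filters, array weights, a replicate block, a covariate and each array left out. Replicate numbers did not pair arrays. Over 60 pairs of arrays with the same number in different strains, deviations from the strain mean had a mean correlation of 0.005 (-0.208 to 0.153), and 5 pairs exceeded 0.1.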

Additional observations from a re-analysis of the deposited data

Results flagged for a closer look

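In 9 of the 132 groups of 4 arrays, 1 array lay far from the other 3 by Dixon's criterion at the 95% level, which chance alone gives in about 1 of 20 groups, here 6.6. Of the 9, 5 were BALB/c replicate 3 and were high. They were Hspa1a at 7.07 (the other BALB/c arrays 5.54 to 5.61), the Hspa1b probe sets 1452318_a_at at 9.61 (7.07 to 7.32) and 1427126_at at 8.68 (6.36 to 6.60), and the Hsph1 probe sets 1425993_a_at at 7.76 (6.46 to 6.67) and 1423566_a_at at 6.87 (6.13 to 6.23). C57BL/6 replicate 3 was high at the Hspa1b probe set 1452318_a_at, at 7.67 where the others were 7.42 to 7.44. AKR replicate 2 was high at the Hspe1 probe set 1422579_at, at 8.23 where the others were 7.79 to 7.84. FVB replicate 1 was low at the Dnajb1 probe set 1416755_at, at 7.08 against 7.43 to 7.49. SWR replicate 3 was low at the Hspe1 probe set 1450668_s_at, at 7.01 against 7.61 to 7.69.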

How the results depend on the processing

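All calls of Hspa1a, Hspa1b, Dnaja1 and Dnajb1 in AKR held in the 24 fits that left out 1 array and under the 7 other settings, and no called difference changed direction. Over these array omissions, the number of member probe sets called was 12 to 19 in the F test (16 with all arrays) and 10 to 17 in AKR (16). The lowest AKR count, 10, came without AKR replicate 3. The counts ranged from 0 to 5 in SWR (2), 0 to 1 in 129X1 (0), 1 to 3 in FVB (2), 2 to 8 in BALB/c (5) and 1 to 7 in C57BL/6 (4), and 59 to 99 of the pairwise contrasts were called (69). SWR had 0 without its replicate 1, 2 or 3 and 5 without AKR replicate 1. BALB/c had 2 without its replicate 2 or 4 and 8 without its replicate 3. C57BL/6 had 1 without its replicate 2 and 7 without AKR replicate 1.

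Across the other settings AKR had 15 to 17 called, all higher, and with the immediate early gene score as a covariate 15 were called both in AKR and in the F test. Shares of all probe sets are not given for the counts under these settings or the array omissions. The 129X1 count was 1 with a pseudocount of 64, with quantile normalization and with array weights. FVB had 1 with a pseudocount of 4 and without the filter. SWR had 4 with quantile normalization and 7 with array weights. BALB/c had 8 with the values as deposited, where the median of all its probe sets shifted to -0.10, and 3 with array weights. With the replicate block, the counts were 16 in the F test, 17 in AKR, 2 in SWR, 0 in 129X1, 1 in FVB, 5 in BALB/c and 6 in C57BL/6, and 74 pairwise contrasts. Of the other values recomputed for single probe sets and genes, 5222 stayed on the same side of the threshold, 78 passed it only under the alternative and 162 lost it. The causes were not tested. Signal over background limits Hspa1a, which was below the 40th percentile on some BALB/c and C57BL/6 arrays.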
